A study of Mus musculus with 12 samples.

Results

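The 33 genes described here encode the sarcomere, the contractile unit of heart muscle, and the Z-disc that anchors it. They were chosen by name from the 24061 gene symbols counted in each library, and all 33 are listed and passed the filter on low counts. The 12 hearts were those of chow-fed male mice of the C57BL/6J strain, between 2 and 4 months old. The labels give 6 as HKII+/- and 6 as HKII+/+ for hexokinase II, the enzyme that starts glucose use in muscle and binds mitochondria. The deposited labels name no other allele or treatment in either group, do not say how the HKII allele was made, and give the tissue only as heart. Of these, HKII+/- replicate 11 and HKII+/+ replicate 13 carry a submitters' mark of potential outlier, so values are given with all 12 libraries and with the 10 unmarked ones (5 per genotype).

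In a sarcomere, thick filaments of myosin pull on thin filaments of actin, and troponin and tropomyosin on the thin filament gate that contact by calcium. Titin spans from the Z-disc to the M-band and acts as a spring and ruler, while alpha-actinin crosslinks the thin filaments at the Z-disc. Adult mouse ventricle is known for the fast myosin heavy chain of Myh6 and the cardiac actin of Actc1. Myh7, Acta1 and Tnni1 encode isoforms that predominate in fetal heart or in skeletal muscle, and of these Myh7 and Acta1 often return under load.

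How well short reads tell such isoforms apart depends on their sequences. The first 150 coding bases of Acta1 (GRCm38 chromosome 8, 123891769 to 123894751, minus strand) and Actc1 (chromosome 2, 114047282 to 114053548, minus strand) are shown because the ratio of these actins is one of the main readouts. Capitals mark the 21 bases at which they differ.
Acta1: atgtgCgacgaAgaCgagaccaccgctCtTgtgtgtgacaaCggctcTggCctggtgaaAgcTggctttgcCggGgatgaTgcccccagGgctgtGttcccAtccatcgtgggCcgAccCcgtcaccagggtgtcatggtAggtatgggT
Actc1: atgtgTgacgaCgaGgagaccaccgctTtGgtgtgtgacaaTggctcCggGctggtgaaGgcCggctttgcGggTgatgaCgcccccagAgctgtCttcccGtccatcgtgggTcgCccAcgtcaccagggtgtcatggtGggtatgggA
Over the whole coding sequence of 1131 bases the actins differed at 155, with 86.3% identity and no identical run longer than 29 bases. No window of 100 bases, the read length, was shared between them.

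The myosin heavy chains were less easily separated. Myh7 and Myh6 are neighbours on chromosome 14 (54970684 to 54994626 and 54941921 to 54966927, both minus strand). The 150 coding bases below cover the end of their longest identical run, of 245 bases, and the capital marks the first base past it that differs.
Myh7: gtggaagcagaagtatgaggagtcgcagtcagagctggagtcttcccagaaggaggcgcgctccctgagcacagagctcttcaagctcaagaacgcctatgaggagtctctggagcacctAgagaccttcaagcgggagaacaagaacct
Myh6: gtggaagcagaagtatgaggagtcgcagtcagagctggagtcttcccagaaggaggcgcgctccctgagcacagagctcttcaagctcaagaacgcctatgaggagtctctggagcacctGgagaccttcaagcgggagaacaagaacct
Their coding sequences were 91.8% identical over 5800 aligned bases, and 687 windows of 100 bases, 11.2% of those of the Myh7 transcript and 11.4% of those of Myh6, occurred in both. Reads from these windows cannot be assigned by sequence alone, so Myh7 and Myh6 counts carry that uncertainty. In the sense direction of the transcript with the longest coding sequence, none of the other 31 members shared such a window with another gene. The opposite strand was not searched. Of counted genes there, Hspb2, Gm15179 and Myl12a overlap exons of Cryab, Des and Myom1 by 252, 220 and 207 bases. Pth1r, Ccdc63 and Trpc4ap overlap Myl3, Myl2 and Myh7b by 95, 60 and 37. On the same strand Dnaaf3 overlaps Tnni3 by 86. How reads from such overlaps were counted is not given.

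Across the series the libraries held 17263209 to 51556592 counts. Hk2, the gene behind the genotype label, ranged from 255.6 to 353.9 CPM (counts scaled to a library of fixed size) in the unmarked HKII+/- libraries and from 470.7 to 542.2 CPM in the unmarked HKII+/+ libraries, without overlap, and read 567.95 CPM in HKII+/- replicate 11 and 652.3 CPM in HKII+/+ replicate 13. Hk2 was the 1 gene of 14139 called between genotypes in the 10 libraries (edgeR log2 fold change -0.80, adjusted p = 0.0165), and with 12 libraries it was not called (log2 fold change -0.66, edgeR adjusted p = 1). CPM here also use edgeR's TMM factors (trimmed mean of M values), which were 0.786 and 0.760 in the marked libraries against 0.993 to 1.09 in the others. The 9 cardiomyocyte markers outside the 33 genes summed to 40926 to 48390 CPM in the unmarked libraries. In HKII+/- replicate 11 and HKII+/+ replicate 13 they summed to 28793 and 39070 CPM, but single markers parted there. Pln fell to 148.8 and 539.9 CPM against 4624 to 5866 CPM in the unmarked libraries. Nkx2-5 rose to 238.1 and 271.9 CPM against 73.3 to 93.2 CPM. The 12 fast skeletal muscle markers summed to 379.8 to 1299 CPM, of which Ckm alone read 308.9 to 1283 CPM and Myl1 13.4 to 57.9 CPM. The others reached at most 5.82 CPM (Tnni2), and among them Myh1, Myh2 and Myh4 at most 0.455 CPM.

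The 33 genes together took 11.1% to 13.58% of all counts in the 10 unmarked libraries, and 19.95% and 21.98% in HKII+/- replicate 11 and HKII+/+ replicate 13. In the unmarked libraries the thick filament genes took 5.995% ± 0.694 of counts in HKII+/- and 5.909% ± 0.247 in HKII+/+ hearts (SD, n = 5 each). The 9 thin filament genes took 3.462% ± 0.323 and 3.392% ± 0.148, titin and the M-band genes 1.056% ± 0.0787 and 1.035% ± 0.14, the Z-disc core genes 1.107% ± 0.0883 and 1.122% ± 0.0836, and the adaptors 0.5042% ± 0.0318 and 0.5068% ± 0.0841. In each class the genotype means differed by less than the SD of either group. In bulk heart RNA, fewer cells of a type and less RNA per cell cannot be told apart.

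**Figure D1:**
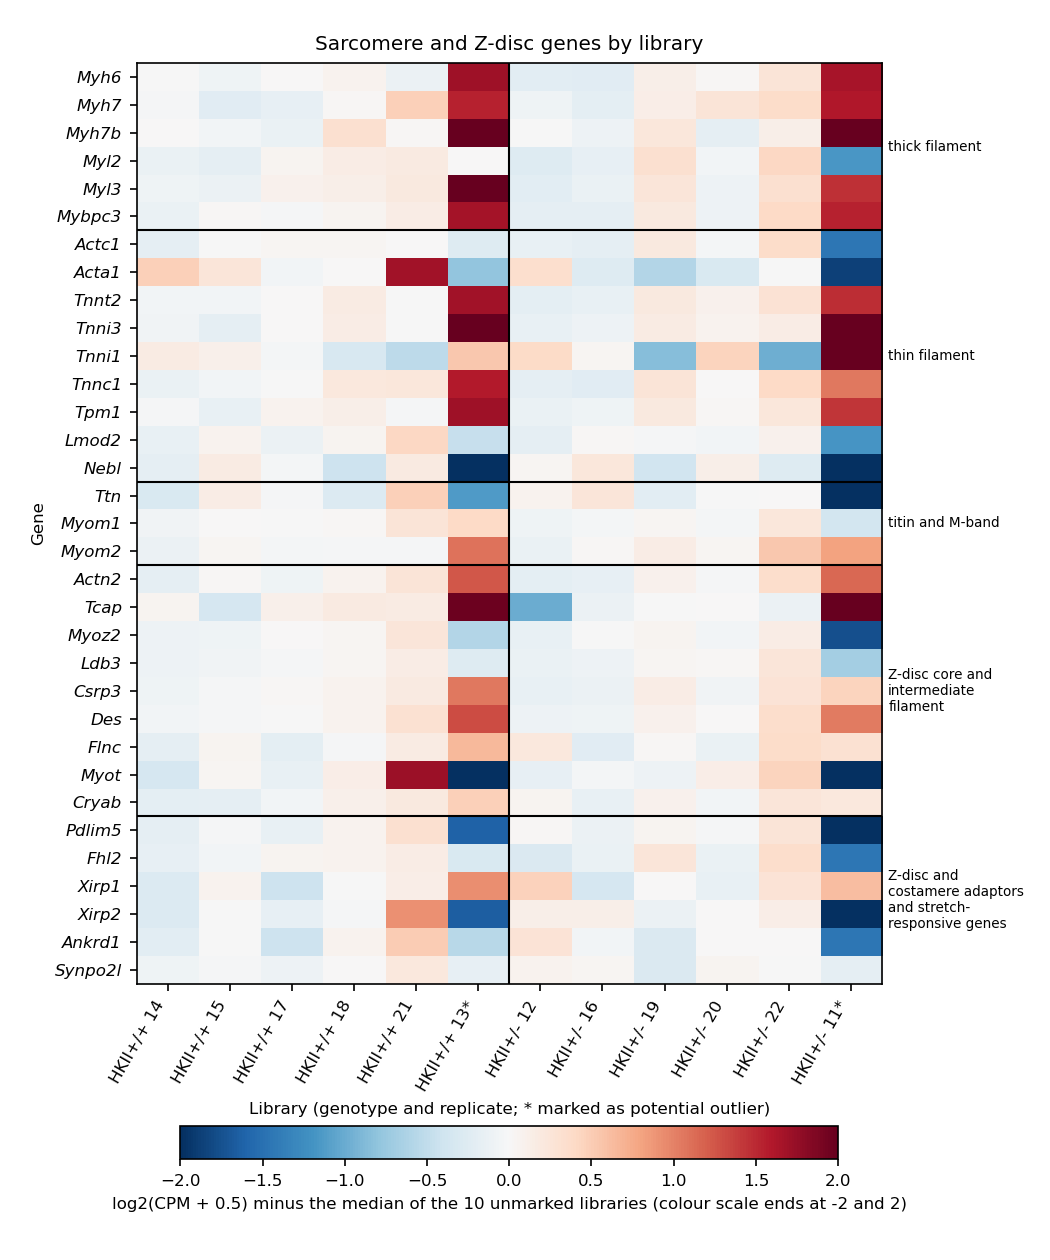
Each row is 1 of the 33 genes, grouped by role, and each column 1 library. Colour gives log2(CPM + 0.5) minus the gene's median over the 10 unmarked libraries, with the scale ending at -2 and 2. The columns of the marked libraries (asterisks) carry most of the strong colour, and in HKII+/+ replicate 21 Acta1 and Myot stand out.

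Among thick filament genes, Myh6 had the highest level per kilobase of exon (given below beside Actc1). Over the 5 unmarked HKII+/+ hearts it averaged 39507 ± 1999 CPM, and over the 5 unmarked HKII+/- hearts 40364 ± 5942 CPM (SD). Its single libraries ran from 34294 to 48135 CPM, both ends being HKII+/- hearts, so the HKII+/+ values lay inside the HKII+/- range. The edgeR log2 fold change (HKII+/- over HKII+/+) was 0.03 (SE 0.10) in the 10 libraries and 0.00 (SE 0.42) in 12, where it was just below 0.

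Myh7, the slow beta isoform, read 796.8, 695.3, 726.6, 828 and 1126 CPM in HKII+/+ replicates 14, 15, 17, 18 and 21, and 765.5, 710.8, 892.4, 970.3 and 1049 CPM in HKII+/- replicates 12, 16, 19, 20 and 22. The highest value was a HKII+/+ heart and the next 3 were HKII+/- hearts, and the genotypes overlapped. The log2 fold change was 0.07 with either set (SE 0.14 with 10 libraries, 0.38 with 12). Myh7b, a slow-type myosin gene that also hosts a microRNA, was at 237.6 ± 30.2 and 234.9 ± 27.3 CPM (SD, n = 5) in HKII+/+ and HKII+/- hearts, a log2 fold change of -0.02 (SE 0.10).

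The light chains and myosin-binding protein had their extremes in the same hearts. Myl2 (regulatory light chain), Myl3 (essential light chain) and Mybpc3 (myosin-binding protein C) each had their highest unmarked value in HKII+/- replicate 22 (6701, 5550 and 7494 CPM) and their lowest in HKII+/- replicate 12 (4217, 3869 and 4993 CPM). Both extremes thus came from the same genotype. For Myl3 the log2 fold change was 0.00 (SE 0.11) with 10 libraries, just below 0, and -0.23 (SE 0.44) with 12.

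Of the thin filament genes, Actc1 and Tnnt2 had the highest levels for their length. Per kilobase of exon, Actc1 stood at 6559 ± 396, Myh6 at 6463 ± 327 and Tnnt2 (cardiac troponin T) at 6209 ± 403 CPM per kb in the 5 unmarked HKII+/+ hearts (SD), so these 3 did not differ beyond their spread. They were followed by Myl3 (4309 ± 399), Myl2 (4141 ± 461) and Tnni3 (3714 ± 309), again neighbours whose spreads overlap. Tnnc1, for troponin C, came next at 2326 ± 263 CPM per kb, ahead of the tropomyosin gene Tpm1 at 1715 ± 119.

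At the other end of that scale, Tnni1 read 0.521 ± 0.18 CPM per kb and Nebl (nebulette, which links actin to the Z-disc) 9.92 ± 1.7. Above them came Myot (35.2 ± 26.1), Myh7b (38.6 ± 4.9), Synpo2l (45.6 ± 4.1) and Ttn, a very long transcript that encodes titin (50.5 ± 11.6), neighbours whose spreads overlap. For genes with several transcripts the level per kb depends on which exons are counted as their length. For Tnnc1 the log2 fold change was 0.01 (SE 0.13) in 10 libraries and -0.16 (SE 0.33) in 12.

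Acta1, skeletal actin, was the member with the widest genotype difference. It read 587.1, 500.1, 409.2, 428.5 and 1360 CPM in HKII+/+ replicates 14, 15, 17, 18 and 21, and 537.4, 353.2, 281.97, 341.8 and 419.5 CPM in HKII+/- replicates 12, 16, 19, 20 and 22. HKII+/+ replicate 21 lay far above the rest, and the remaining hearts overlapped between genotypes. The means were 656.9 ± 399 and 386.8 ± 97.3 CPM (SD, n = 5). The log2 fold change was -0.76 (SE 0.32, edgeR unadjusted p = 0.0333, adjusted p = 1) with 10 libraries, and without HKII+/+ replicate 21 it was -0.31 (SE 0.17, edgeR adjusted p = 1).

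Lmod2, leiomodin, which lengthens thin filaments, was highest in the same heart, at 857.2 CPM against 566.7 to 678.9 CPM in the other unmarked libraries. Its log2 fold change was -0.10 (SE 0.10) with 10 libraries and -0.16 (SE 0.21) with 12. Actc1 ran from 8616 to 12595 CPM with both ends in HKII+/- hearts (log2 fold change 0.07, SE 0.11, with 10 libraries; -0.05, SE 0.24, with 12). Tnni3, the adult cardiac troponin I, kept within 3026 to 3836 CPM (log2 fold change 0.05, SE 0.08, with 10 libraries).

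Tnni1, slow skeletal troponin I, was barely counted. The unmarked libraries held 4 to 45 reads of it, equal to 0.137 to 1.20 CPM, with the lowest levels in HKII+/- replicates 22 (7 reads) and 19 (4 reads). HKII+/- replicate 11 held 107 reads (4.55 CPM). With 10 libraries the log2 fold change was -0.01 (SE 0.50), and with 12 it was 0.78 (SE 0.70, edgeR adjusted p = 1).

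In the middle of the sarcomere, Ttn ran from 4553 CPM (HKII+/+ replicate 14) to 7753 CPM (HKII+/+ replicate 21). The M-band crosslinkers Myom1 and Myom2 averaged 2096 ± 194 and 2017 ± 75.6 CPM over the unmarked HKII+/+ hearts, and 2063 ± 184 and 2269 ± 425 CPM over the HKII+/- ones (SD, n = 5). HKII+/- replicate 22, at 2984 CPM, gave Myom2 its wide HKII+/- spread. Log2 fold changes in 10 libraries were -0.02 (SE 0.08) for Myom1 and 0.17 (SE 0.11) for Myom2, and in 12 libraries -0.14 (SE 0.13) and 0.04 (SE 0.24).

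In the Z-disc core, Actn2 (alpha-actinin), Myoz2 (a calcineurin-binding Z-disc protein), Ldb3 (which binds alpha-actinin), Csrp3 (muscle LIM protein), Des (the intermediate filament desmin), Flnc (filamin C) and Cryab (a small heat shock protein and desmin chaperone) each spanned 1.3-fold to 1.51-fold from the lowest to the highest unmarked heart. Actn2, Ldb3, Csrp3, Des, Flnc and Cryab were highest in HKII+/- replicate 22. For Csrp3 the log2 fold change was -0.01 (SE 0.09) with 10 libraries and -0.16 (SE 0.21) with 12, and for Flnc 0.09 (SE 0.11) and 0.00 (SE 0.17), the last just below 0. Cryab shares 252 exonic bases, 17% of its exon length, with Hspb2 on the opposite strand, and the strand setting of the counting is not given in the sources used here.

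Tcap, telethonin, which caps titin at the Z-disc, differed. It read 536.6 CPM in HKII+/- replicate 12 and 981.9, 1063, 1067 and 986.6 CPM in HKII+/- replicates 16, 19, 20 and 22. The HKII+/+ replicates 14, 15, 17, 18 and 21 read 1100, 845.4, 1141, 1207 and 1191 CPM. HKII+/- replicate 12 thus lay below all other unmarked libraries, and the rest overlapped. The log2 fold change was -0.24 (SE 0.17, edgeR adjusted p = 1) with 10 libraries and turned to 0.10 (SE 0.59) with 12.

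Myot, myotilin, which bundles actin at the Z-disc, read 43.1, 55.9, 49.2, 60.3 and 180.4 CPM in HKII+/+ replicates 14, 15, 17, 18 and 21 and 48.7, 53.4, 50.7, 60.2 and 74.5 CPM in HKII+/- replicates 12, 16, 19, 20 and 22. Apart from HKII+/+ replicate 21 the genotypes covered similar ranges. The log2 fold change was -0.43 (SE 0.35) with 10 libraries, and it was 0.15 (SE 0.13) without HKII+/+ replicate 21.

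The adaptor and stretch-responsive genes had the same heart at the top in 4 of 6 cases. Ankrd1, a nuclear and Z-disc protein induced by stretch, read 1132, 1312, 987.1, 1384 and 1870 CPM in HKII+/+ replicates 14, 15, 17, 18 and 21 and 1594, 1257, 1069, 1315 and 1313 CPM in HKII+/- replicates 12, 16, 19, 20 and 22. Xirp2, an actin-binding repeat protein of cell junctions and costameres, read 643.9, 773.9, 696.5, 766.4 and 1469 CPM, and 843.5, 847.4, 723.9, 789.6 and 859.9 CPM, in the same order. In both genes the genotypes overlapped and HKII+/+ replicate 21 was highest. Pdlim5 (a PDZ and LIM adaptor) and Synpo2l (an actin-associated Z-disc protein) were also highest there, at 905.7 and 243.3 CPM.

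The other 2 adaptors peaked elsewhere. Xirp1, the companion of Xirp2, was highest in HKII+/- replicate 12 (548.5 CPM) and lowest in HKII+/+ replicate 17 (297.6 CPM), with a log2 fold change of 0.16 (SE 0.15) in 10 libraries and 0.04 (SE 0.24) in 12. Fhl2, a LIM protein that binds titin, was highest in HKII+/- replicate 22 (1632 CPM) and lowest in HKII+/- replicate 12 (1050 CPM).

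Counted over all 33 genes, the highest unmarked library was HKII+/- replicate 22 for 16 genes and HKII+/+ replicate 21 for 11, and the lowest was HKII+/- replicate 12 for 14. With TMM scaling the members varied more between unmarked libraries than genes in general did. The median SE of the 10-library log2 fold change was then 0.112 for members and 0.0891 for all genes. With total counts only the order reversed, at 0.0854 for members and 0.0931 for all genes. The SD of log2(CPM + 0.5) within genotypes, pooled over the 10 libraries, had a median of 0.193 for the 33 genes. For the 5060 genes with a mean log2 CPM of at least 5 it was 0.102. This SD was taken with TMM scaling only. Myot (0.61) and Acta1 (0.56) were the widest, followed among well-counted members by Xirp2 (0.34) and Tcap (0.33), and Myom1 (0.13) the narrowest.

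**Figure D2:**
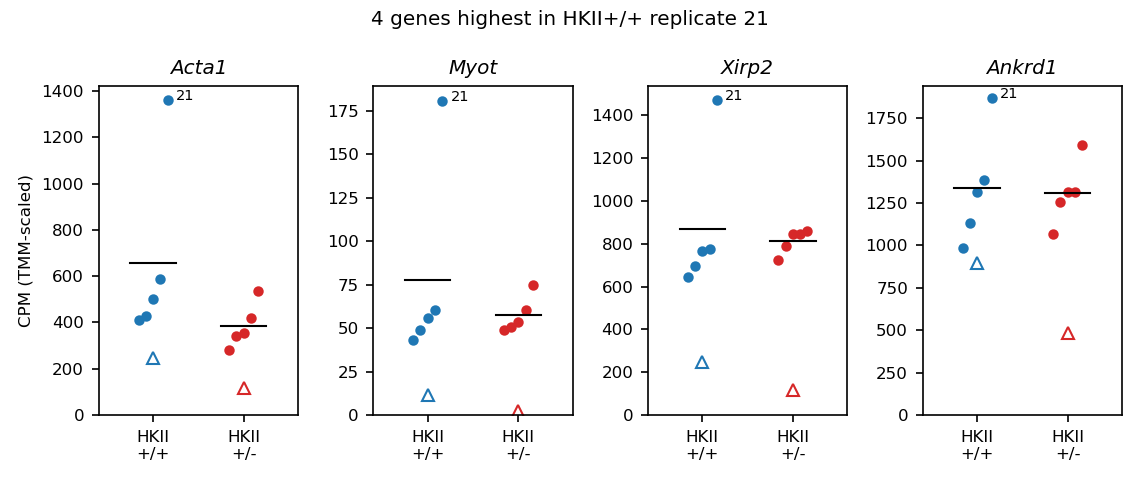
CPM of Acta1, Myot, Xirp2 and Ankrd1 by genotype, 1 point per unmarked library, bars at the mean of the 5 unmarked libraries and open triangles for the marked libraries. The point numbered 21 is HKII+/+ replicate 21, at 1360, 180.4, 1469 and 1870 CPM, above every other library in each panel.

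The promoters of 3 of the 11 genes highest in HKII+/+ replicate 21 are shown for the muscle motifs they hold. These 3 were picked with their values known. Each line gives the 250 bases before the RefSeq start site (GRCm38.p6), 5′ to 3′ on the gene's strand, with capitals for matches to a CArG box (bound by serum response factor), a MEF2 site, the M-CAT motif CATTCC (bound by TEAD factors) or TATAAA. The stretch of Acta1 lies at chr8:123894776-123895025, Xirp2 at chr2:67445752-67446001 and Ankrd1 at chr19:36119845-36120094, on the minus, plus and minus strands.
Acta1: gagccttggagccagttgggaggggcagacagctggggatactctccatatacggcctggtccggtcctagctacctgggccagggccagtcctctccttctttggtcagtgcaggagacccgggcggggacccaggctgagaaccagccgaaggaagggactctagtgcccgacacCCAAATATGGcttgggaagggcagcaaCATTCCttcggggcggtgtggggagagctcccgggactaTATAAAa
Xirp2: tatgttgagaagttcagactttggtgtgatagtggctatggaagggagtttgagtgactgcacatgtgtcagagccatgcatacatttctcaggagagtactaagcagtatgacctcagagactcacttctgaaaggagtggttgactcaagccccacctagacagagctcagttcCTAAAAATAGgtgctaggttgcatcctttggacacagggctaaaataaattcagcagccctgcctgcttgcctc
Ankrd1: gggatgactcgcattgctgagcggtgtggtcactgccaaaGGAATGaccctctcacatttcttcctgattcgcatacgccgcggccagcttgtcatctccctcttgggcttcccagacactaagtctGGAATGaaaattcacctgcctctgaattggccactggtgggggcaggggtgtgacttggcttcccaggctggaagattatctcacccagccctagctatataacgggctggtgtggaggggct
The Acta1 promoter held a CArG box, an M-CAT and TATAAA, that of Xirp2 a MEF2 site, and that of Ankrd1 2 copies of M-CAT, both on the opposite strand. No motif was common to all 3, which does not extend to the other genes highest in that heart.

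RefSeq promoters were found for 28 of the 33 genes, and Myom2, Tcap, Myot, Cryab and Xirp1 had none in the table used. CArG boxes stood in 7 of the 28 (25%) against 1.62% of 27025 genes, MEF2 sites in 5 (17.9%) against 0.592%, M-CAT in 10 (35.7%) against 14.4% and TATAAA, read on the gene's strand, in 1 (3.57%) against 8.94%. The CArG box and the MEF2 site were read on both strands, as was M-CAT, and no match overlapped another in the 3 promoters shown. The genes with a CArG box were Acta1, Actc1, Fhl2, Ldb3, Myl3, Myom1 and Nebl, and those with a MEF2 site were Mybpc3, Myoz2, Synpo2l, Ttn and Xirp2. A match describes the sequence and was not tested for binding.

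The ratio of fetal-type to adult isoform was compared per kilobase of exon, as log2 ratios tested by an exact two-sided permutation of the genotype labels. Myh7 made up 2.014% ± 0.473 of Myh6 plus Myh7 in HKII+/+ and 2.061% ± 0.118 in HKII+/- hearts (SD, n = 5). Single hearts ran from 1.70% to 2.24% apart from HKII+/+ replicate 21 at 2.85%. The log2 ratio was higher in HKII+/- by 0.06, less than the HKII+/+ SD of 0.309 (exact permutation p = 0.754).

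Acta1 made up 6.382% ± 3.45 of striated actin in HKII+/+ and 3.83% ± 1.25 in HKII+/- hearts (SD, n = 5). HKII+/+ replicate 21 held 12.3%, and the other unmarked hearts 2.49% to 6.46%, with overlap. The log2 ratio differed by -0.70 (exact permutation p = 0.0873, adjusted over the 5 ratios 0.437). With 12 libraries the difference was -0.57 (exact permutation p = 0.134, adjusted 0.671), and without HKII+/+ replicate 21 it was -0.30.

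Tnni1 accounted for 0.01432% ± 0.00574 of troponin I in HKII+/+ and 0.01473% ± 0.0111 in HKII+/- hearts (SD, n = 5), and its log2 ratio to Tnni3 differed by -0.41 (exact permutation p = 0.603). The lowest shares, 0.00258% and 0.00362%, were those of HKII+/- replicates 22 and 19. None of the 5 ratios passed in either set of libraries. The smallest exact permutation p is 0.00794 with 5 against 5 libraries and 0.00216 with 6 against 6.

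The other 2 ratios set an atrial light chain against its ventricular partner, and both atrial genes are among the atrial markers described further on. Myl7 made up 0.0147% and 0.631% of Myl2 plus Myl7 in HKII+/- replicates 22 and 19, against 23.3% to 28.2% in the other unmarked HKII+/- hearts and 7.77% to 26% in HKII+/+ hearts. Myl4 followed the same order, at 0.0178% and 0.394% of Myl3 plus Myl4 in those 2 hearts and 5.05% to 18.9% in the other unmarked ones. The log2 ratios differed between genotypes by -2.57 and -2.25 in the 10 libraries (exact permutation p = 0.429 and 0.444), with HKII+/- SDs of 5.02 and 4.63. Without HKII+/- replicates 19 and 22 they differed by 0.82 and 0.93 the other way (exact permutation p = 0.161 and 0.0893, 3 against 5 libraries, smallest reachable p 0.0179).

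**Figure D3:**
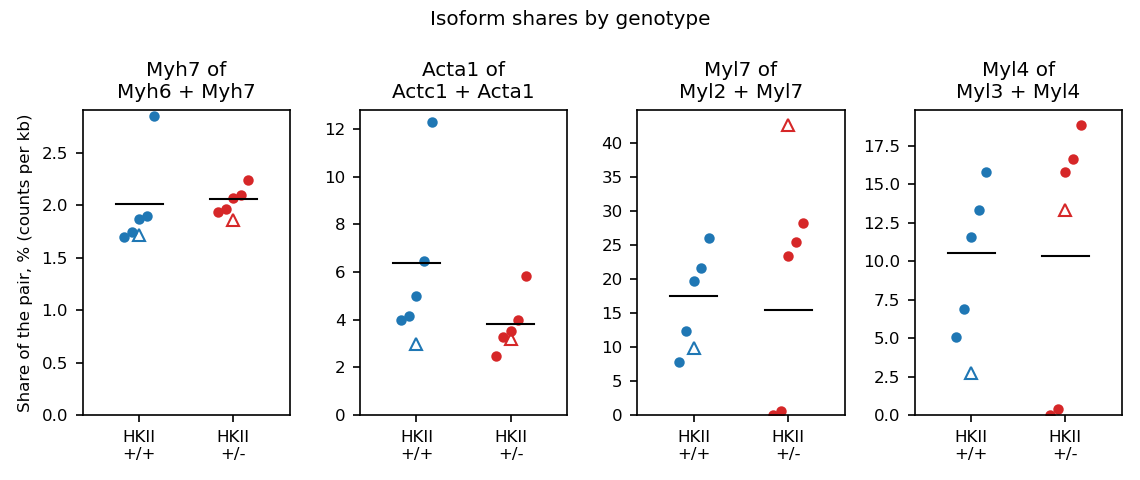
Share of each isoform within its pair, in % of counts per kb, by genotype. Points are unmarked libraries, bars their mean and open triangles the marked libraries. HKII+/+ replicate 21 is the high point in the first 2 panels, and HKII+/- replicates 19 and 22 are the points near 0 in the last 2.

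The comparison the design implies is HKII+/- against HKII+/+. No member was called between genotypes by edgeR with 12 libraries (0 of 33, background 0% of 14107 genes) or with 10 (0 of 33, background 0.00707% of 14139 genes). At an unadjusted p below 0.05 there were 0 members with 12 libraries (background 0.262%) and 1, Acta1, with 10 (background 2.8%). DESeq2 called 0 members in either set, with adjusted p for 29 of the 33 in the 12 libraries. In no member did the CPM of the genotypes fail to overlap, in either set (background 0.0213% with 12 libraries and 0.474% with 10). In simulated counts of the 10 libraries 92% of genes changed by 2-fold and 69% of those changed by 1.5-fold were recovered. With 12 libraries these rates were 17% and 0%. Of the unchanged genes 8 were called with 10 libraries and 2 with 12. The adjusted p of a gene depends on the p-values of all others, and the real 10 libraries gave only 1 called gene. The simulated rates therefore do not give the chance that such a change in a member would be called.

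The width of the intervals in the 10 libraries differed between members. The 95% interval of the log2 fold change was -0.19 to 0.25 for Myh6, -0.13 to 0.23 for Tnni3, -0.16 to 0.31 for Actc1, -0.20 to 0.15 for Myom1 and -0.21 to 0.19 for Csrp3. It was wider for Myom2 (-0.06 to 0.40), Xirp1 (-0.17 to 0.50), Tcap (-0.61 to 0.12) and Xirp2 (-0.53 to 0.33), and wider still for Acta1 (-1.45 to -0.07), Myot (-1.20 to 0.34) and Tnni1 (-1.11 to 1.09).

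**Figure D4:**
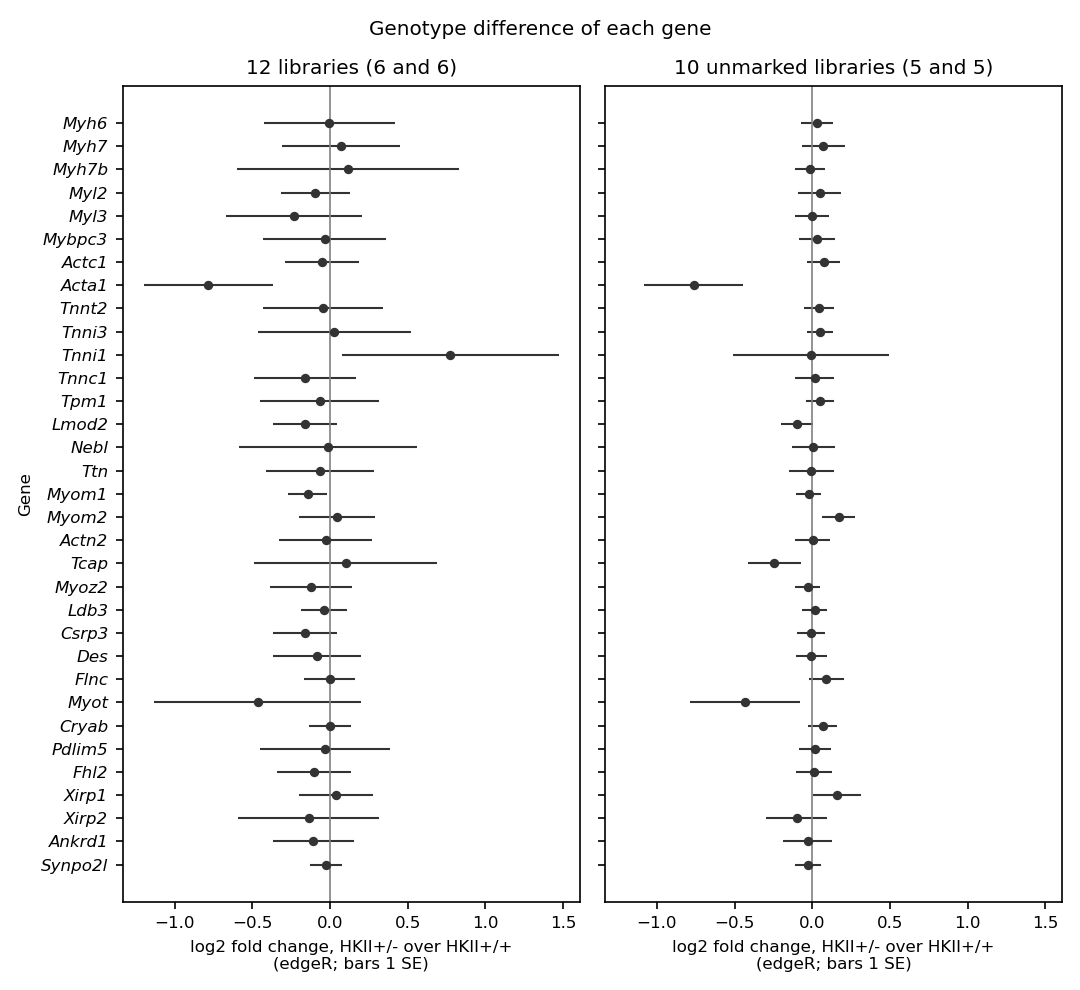
Log2 fold change (HKII+/- over HKII+/+, edgeR) of each gene with 12 libraries on the left and 10 unmarked libraries on the right, with bars of 1 SE. Acta1 lies at -0.78 and -0.76, and most other genes lie near 0 with shorter bars on the right.

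The direction of the small differences turned with the hearts included. With 12 libraries 26 of 33 members were lower in HKII+/- (background 50.5% of genes), at a median log2 fold change of -0.05 against 0.00 over all genes. With 10 libraries 15 were lower (background 52.7%) at a median of 0.01. Without HKII+/+ replicate 21 as well, 4 of 33 were lower (background 50.5%), namely Acta1, Tcap, Tnni1 and Myh7b, at a median of 0.07.

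Atrial markers also differed between these hearts. The 12 atrial markers summed to 430 to 7683 CPM in the unmarked HKII+/- hearts and 2673 to 6580 CPM in the HKII+/+ hearts, and HKII+/- replicates 22 and 19 held almost none of Myl7 (0.469 and 19.1 CPM), Myl4 (1.11 and 23.6 CPM), Sln (0.0782 and 5.47 CPM) or Bmp10 (0.0195 and 0.145 CPM). HKII+/+ replicate 18 also had Bmp10 at 0, with Myl7 at 651.95 CPM. The same 2 HKII+/- hearts had the largest unmarked shares of counts in the 33 genes, 13.58% and 12.76%. An atrial covariate, the mean log2 CPM of Myl7, Myl4, Sln and Bmp10 only, was added to the fit of the 10 libraries. Scaled over 12 libraries, this mean was -1.72 and 2.27 in HKII+/- replicates 22 and 19, against 8.63 to 8.98 in the other unmarked HKII+/- hearts. In HKII+/+ replicate 18, where Bmp10 was 0, it was 5.66, against 7.38 to 8.73 in the other unmarked HKII+/+ hearts. With this covariate 26 of 33 members were lower in HKII+/- (background 51.5%, median -0.06) and 0 had an edgeR unadjusted p below 0.05 (background 4.63%). The fit without HKII+/- replicates 19 and 22 is not independent of the covariate fit, because the covariate was lowest in those hearts. Leaving them out instead gave 26 of 33 lower (background 51%, median -0.10), with 4 members at an edgeR unadjusted p below 0.05 (background 7.02%).

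Those 4 were Fhl2, with a log2 fold change of -0.20 (SE 0.08), Mybpc3 at -0.17 (SE 0.07), Myl3 at -0.18 (SE 0.08) and Csrp3 at -0.15 (SE 0.06), each with an edgeR adjusted p of 0.706 (3 against 5 hearts). They were named after their values were seen. With 12 libraries and the atrial covariate 24 of 33 members were lower in HKII+/- (background 51.1%, median -0.08). The part of atrial content in the members' differences was not tested beyond these 3 fits.

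The marked libraries differed from the rest in opposite directions for different members. In both of them 16 of the 33 genes lay above every unmarked library of their genotype and 12 lay below, and the other 5 were placed differently in each. Myh7b was 7.58-fold and 6.46-fold the unmarked level of its genotype in HKII+/- replicate 11 and HKII+/+ replicate 13, Tcap 6.30-fold and 3.79-fold, Tnni3 3.89-fold and 4.03-fold, and Myh6 3.14-fold and 3.32-fold. Nebl was at 0.0705 and 0.146 of that level, Myot at 0.0532 and 0.178, Xirp2 at 0.143 and 0.301, Ttn at 0.228 and 0.454, and Acta1 at 0.308 and 0.42.

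The 2 libraries shared this order. Over the 33 genes their log2 departures were correlated (Pearson r 0.966, Spearman rho 0.942), as a description across genes, which are not independent replicates. The departures followed the GC content of the transcript with the longest coding sequence (r 0.788 and rho 0.695 in HKII+/- replicate 11, r 0.752 and rho 0.65 in HKII+/+ replicate 13). The 16 genes above in both had a median GC content of 55.8% (50.4% to 61.3%), and the 12 below in both 48.2% (40.1% to 57%). Acta1, at 57% GC, was among those below. The isoform share of Myh7 was 1.86% in HKII+/- replicate 11, below its genotype's unmarked range of 1.94% to 2.24%, and 1.72% in HKII+/+ replicate 13, inside the range of its genotype.

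Marker genes of other cell types also stood apart in the marked libraries, in HKII+/- replicate 11 above all. Its 8 airway epithelium markers summed to 406.7 CPM against at most 1.72 CPM in the unmarked libraries and 0.787 CPM in HKII+/+ replicate 13, and its 8 fat cell markers to 2107 CPM against 461.6 to 852.6 CPM. Of its fat cell sum Fabp4, also on the endothelial list, held 840.7 CPM. Its Ucp1 (69.4 CPM) and Lep (2.51 CPM) lay inside the unmarked range, and the rest of that list above it. Its 12 atrial markers summed to 17825 CPM against 430 to 7683 CPM, of which Nppa (atrial natriuretic peptide) held 12940, and the atrial genes Mybphl (24.4 CPM) and Tbx5 (28.95 CPM) were below every unmarked HKII+/+ library. Myl7 made up 42.6% of its Myl2 plus Myl7, above the 28.2% of the highest unmarked heart. Myl7 itself, at 797 CPM, lay inside the unmarked range (up to 902.6 CPM), while Myl2, at 2259 CPM, lay below every unmarked library (4217 to 6701 CPM). Sln (269.6 CPM), Bmp10 (154.6 CPM) and the Myl4 share (13.3%) were also inside the unmarked range, and Myl4 (2131 CPM) was above it. The 8 fibroblast and matrix markers did not move together: they summed to 12630 CPM against 1003 to 1707 CPM in the unmarked libraries, but the sum was carried by the collagens Col3a1 (6291 CPM), Col1a1 (3657 CPM) and Col1a2 (2538 CPM). Dcn (77.97 CPM), Pdgfra (33.2 CPM), Postn (10.4 CPM) and Lum (3.40 CPM) lay below every unmarked library. In HKII+/+ replicate 13 the same list summed to 3950 CPM with Col3a1 (1756 CPM), Col1a1 (1113 CPM) and Col1a2 (909.9 CPM) above every unmarked library and the same 4 genes below. Its fat cell markers summed to 588.8 CPM, of which Fabp4 held 563.9, and its atrial markers to 5927 CPM, inside the unmarked range, while its Myl4 share of 2.72% lay below every unmarked HKII+/+ heart. The single markers named here were picked after their values were seen. The part of GC content or of other cells in the members' values there was not tested.

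**Figure D5:**
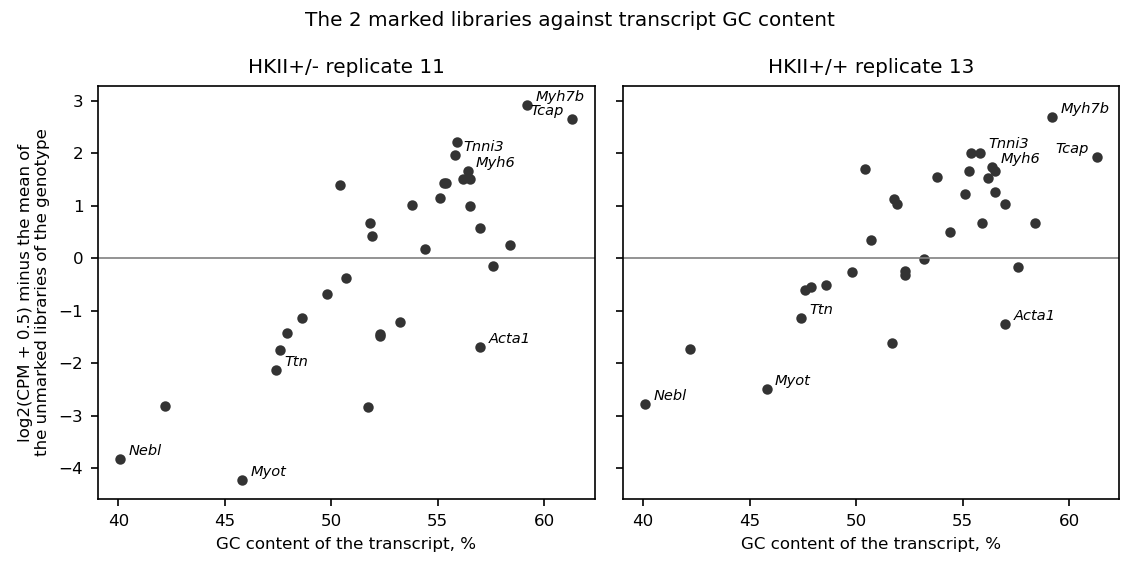
Each point is 1 of the 33 genes. The x axis is the GC content of its transcript with the longest coding sequence, in %, the y axis log2(CPM + 0.5) in the marked library minus the mean of the unmarked libraries of its genotype. Points rise from Nebl and Myot at the lower left to Myh7b and Tcap at the upper right in both panels, with Acta1 below the trend.

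Of 77 other sarcomere and myofibril genes, 68 were tested and edgeR called 0 with either set of libraries (background 0% and 0.00707%). With 12 libraries 39 were lower in HKII+/- (background 50.5%) and 0 had an unadjusted p below 0.05 (background 0.262%). With 10 libraries 40, or 58.8%, were lower (background 52.7%) and 3, or 4.41%, had such a p (background 2.8%). These 3 were Trim63, a ubiquitin ligase of muscle (log2 fold change -0.15, SE 0.06), Pdlim7, a PDZ and LIM adaptor (0.16, SE 0.07), and Mylk3, the cardiac myosin light chain kinase (0.14, SE 0.06). Each had an edgeR adjusted p of 1. With 12 libraries the smallest p belonged to Pdlim7 (0.17, SE 0.10), Myzap (-0.13, SE 0.12) and Tnnt3 (-0.32, SE 0.28).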

How the data were processed

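Poly(A) RNA of 12 mouse hearts was sequenced as single-end reads of 100 nt, per the labels' protocols. The submitters' processing notes name STAR 2.4.0, featureCounts 1.4.4 and the builds mm10 and GRCm38. The deposited values are raw whole-number counts per gene symbol, 1 table per library. No source used here gives the strand setting, the annotation release or the treatment of multimapping reads.

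Genotypes came from the titles. Counts (17263209 to 51556592 per library) were fitted with edgeR 4.0.16 (glmQLFit, glmQLFTest) using TMM scaling. Genes were kept by filterByExpr at a minimum count of 10, and p-values were adjusted by Benjamini-Hochberg over all of them (threshold 0.05). The fit was made once with 12 and once with the 10 unmarked libraries, with no covariate. CPM are scaled by the TMM factors of the 12-library fit. Standard errors and 95% intervals come from the quasi-likelihood F. Isoform log2 ratios of counts per kb were tested by exact permutation over all splits. Lengths, coordinates and GC content came from GENCODE vM21 (GRCm38, basic protein-coding transcripts), promoters from RefSeq. Alternatives were RLE scaling, total counts, no filter, DESeq2 1.42.0, limma 3.58.1 voom with sample quality weights, an atrial marker covariate and leaving libraries out. The fits were tested on simulated data. Replicates of a genotype differed beyond sampling noise (lowest chi-square per degree of freedom 7.03), so none was a repeat deposit. No label says that libraries came from separate animals, beyond their separate titles, so p-values measure the spread between these samples.

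The 33 genes, the roles and the lists were chosen with earlier results of these data known. Genes named with a test are the isoform genes, the 6 other members with the smallest p in each fit and the 3 other sarcomere genes with the smallest p in each fit. R was 4.3.3, Python 3.11.15 with scipy 1.17.1, and alignments used Biopython 1.88.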

Additional observations from a re-analysis of the deposited data

Results flagged for a closer look

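In each genotype of 6 libraries a value was singled out where its gap to the nearest other value exceeded Dixon's 95% limit. Chance does this in about 1 group in 20, and here 37 of the 66 combinations of gene and genotype were singled out, 19 of them by HKII+/- replicate 11, 16 by HKII+/+ replicate 13 and 2 by HKII+/+ replicate 21.

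HKII+/- replicate 11 was the highest of its genotype in thick filament genes, at 125798 CPM for Myh6, 2462 for Myh7, 1773 for Myh7b, 12323 for Myl3 and 16430 for Mybpc3. It was also the highest in Tnnt2 (21632 CPM), Tnni3 (13580), Tnni1 (4.549), Tpm1 (22051), Actn2 (5072), Tcap (5673) and Des (4151). It was the lowest in Lmod2 (284.8 CPM), Nebl (6.717), Ttn (1291), Myoz2 (228.2), Myot (2.551), Pdlim5 (103.3) and Xirp2 (115.5).

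HKII+/+ replicate 13 was the highest of its genotype in Myh6 (130868 CPM), Myh7 (2359), Myh7b (1529), Myl3 (18478), Mybpc3 (18051), Tnnt2 (24793), Tnni3 (13611), Tnnc1 (4851), Tpm1 (26489), Myom2 (4388), Actn2 (5408), Tcap (4126), Csrp3 (2218), Des (5004), Flnc (1153) and Xirp1 (758.1). HKII+/+ replicate 21 was the highest in Acta1 (1360 CPM) and Myot (180.4 CPM).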

How the results depend on the processing

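No paired analysis was possible because the genotypes share no replicate numbers. No alternative brought a member past the adjusted threshold. Counts of called genes over the whole table stayed at 0 with 12 libraries except for 2 with voom quality weights, 1 without the marked libraries and 1 without these and HKII+/- replicates 19 and 22. With 10 libraries the count of 1 became 3 under DESeq2 and ran from 0 to 2 when single libraries were left out. The count of members lower in HKII+/- went from 26 to 15 without the marked libraries and ran from 15 to 30 over single libraries left out, and from 15 to 26 in the 10 libraries with the atrial covariate, with 4 to 23 over single libraries. Leaving out HKII+/- replicates 19 and 22 from the 10 libraries was an alternative chosen after seeing the data.

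The sign of small log2 fold changes turned from that with 12 libraries. With total counts Myh6 was at 0.0118 and Flnc at 0.0222, and with the atrial covariate Myh6 was at 0.0442. With quality weights Myh7b was at -0.0479, Tnni1 at -0.165, Tcap at -0.20 and Flnc at 0.0219. Without the marked libraries Myh6 was at 0.0315, Myh7b at -0.0154, Actc1 at 0.0731, Tnni1 at -0.00733, Tnnc1 at 0.0146, Tcap at -0.243 and Flnc at 0.0911. Without these and HKII+/- replicates 19 and 22, Myh7 was at -0.032, Myh7b at -0.129, Tnni3 at -0.0354 and Tcap at -0.347.

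With single libraries left out of the 12, log2 fold changes ran from -0.447 to 0.488 for Myh6, -0.318 to 0.471 for Myh7, -0.961 to 1.08 for Myh7b, -0.169 to 0.113 for Actc1, -0.164 to 1.05 for Tnni1, -0.548 to 0.637 for Tnni3, -0.243 to 0.0826 for Csrp3, -0.68 to 0.137 for Myot, -0.599 to 0.375 for Myl3, -0.388 to 0.251 for Tnnc1, -0.0923 to 0.319 for Myom2, -0.799 to 0.674 for Tcap, -0.0691 to 0.282 for Xirp1 and -0.0559 to 0.148 for Flnc. For Acta1 they kept their sign, from -0.96 to -0.346, and in the 10 libraries from -0.916 to -0.309. The troponin I ratio turned from -0.04 to a difference of 0.00319 percentage points on the linear share, the regulatory light chain ratio from -1.68 to 3.82 points and the essential light chain ratio from -1.46 to 1.62 points. Without the marked libraries and HKII+/- replicates 19 and 22 these log2 ratios differed by 0.736, 0.818 and 0.928, and over single libraries left out they ran from -0.273 to 0.394, -2.43 to 0.0295 and -2.04 to 0.0287. The causes of these turns were not tested. Depth limits Tnni1 above all, with 4 to 107 reads per library.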
